A study of Mus musculus with 2 samples.

Results

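The genes described here are 10 members of the unfolded protein response of the endoplasmic reticulum: Hspa5, Hsp90b1, Calr, Manf, Creld2, Pdia4, Pdia6, Sdf2l1, Dnajb9 and Xbp1. They were taken by symbol from the gene lists of both count matrices, and all 10 were found among 32285 genes. Their levels were followed across the cell classes of mitral valve leaflets, between genotypes, and beside the level of collagen RNA in the same cells. The tissue came from mouse embryos at day E17.5 of gestation. The mutant embryos carried Nfatc1-Cre and Dicer loxp/loxp, and the control embryos were wild type. Nfatc1-Cre is known to act in the endocardium and its descendants, and DICER1 cuts microRNA precursors into mature microRNAs. For each genotype the leaflets of 3 to 4 hearts were pooled, dissociated with 0.05% trypsin and sorted for cells free of a dye that stains dead cells, and a single 3′-end droplet library was made. There is thus 1 library per genotype and no replicate. Differences carry 95% intervals that cover counting error only, no test between genotypes was possible, and genotype, pool and library preparation cannot be told apart; the sexes of the embryos, which also differed between the pools, can be separated in part.

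Proteins that are secreted or set into membranes fold in the endoplasmic reticulum, helped by chaperones, by enzymes that form disulphide bonds and by sugar-binding lectins. When unfolded protein builds up, the sensors IRE1, PERK and ATF6 set off a response in which the transcription factors XBP1, ATF4 and cleaved ATF6 raise the genes of this folding machinery. Valve interstitial cells and fibroblasts secrete collagen, a protein that needs much of this machinery, and valve endothelium lines the leaflet. HSPA5 (BiP) is the Hsp70 chaperone of the organelle and holds the sensors inactive. DNAJB9 (ERdj4) and SDF2L1 are its partners, MANF is a small secreted protein that binds it, HSP90B1 (GRP94) is the Hsp90 of the organelle and CALR (calreticulin) is the lectin chaperone of glycoproteins. PDIA4 and PDIA6 are protein disulphide isomerases, CRELD2 is a stress-inducible protein of the same compartment, and XBP1 is both a transcription factor and a target of the response.

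The promoters were searched because most of these genes were higher together in mutant valve or endocardial endothelial-like cells. Most were also higher in mutant valve interstitial-like and coronary endothelial-like cells, by less. The element bound by ATF6 with the factor NF-Y, the endoplasmic reticulum stress element, was written as CCAAT, then 9 bases of any kind, then CCACG, and searched on both strands in the 250 bases before each gene's start in the RefSeq promoter table (GRCm38.p6). The table holds 9 of the 10 members, all except Manf. An exact match stood in 5 of these 9, against 0.113% of 32851 promoters in the table. The members were picked as known genes of this response, so this share is not a test of their differences between genotypes. The stretches with a match are shown with 15 bases on each side, with both fixed parts of the element in capitals; CGTGG and ATTGG mark an element on the opposite strand.
Hspa5 (chr2:34772010-34772058, plus strand): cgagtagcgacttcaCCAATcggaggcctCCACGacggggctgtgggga
Hsp90b1 (chr10:86705518-86705671, minus strand): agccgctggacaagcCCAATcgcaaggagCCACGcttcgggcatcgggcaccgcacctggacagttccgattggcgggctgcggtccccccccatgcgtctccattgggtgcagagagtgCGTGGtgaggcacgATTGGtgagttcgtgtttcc
Calr (chr8:84847060-84847108, minus strand): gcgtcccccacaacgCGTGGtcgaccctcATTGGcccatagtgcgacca
Creld2 (chr15:88819505-88819553, plus strand): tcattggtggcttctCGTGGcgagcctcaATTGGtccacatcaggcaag
Pdia6 (chr12:17266476-17266524, plus strand): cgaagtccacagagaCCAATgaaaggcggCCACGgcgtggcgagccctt
Hsp90b1 held 2 matches and the other 4 genes held 1 each. The match of Hspa5 ran from 65 to 47 bases before the start. In Pdia4, Sdf2l1, Dnajb9 and Xbp1 these letters were not in the window. The second element, ATTGG, 1 base, CCACG, stood in 0.0304% of all promoters, the XBP1 element TGACGTGG in 0.563%, and neither in any of the 9. No binding was measured in these data. The table's starts are RefSeq's; that of Hspa5 lies inside the GENCODE gene body given next, so its stretch lies before the RefSeq start only.

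The gene bodies lie on separate stretches of the mm10 genome (GRCm38, GENCODE M21). Hspa5 (ENSMUSG00000026864) is at chr2:34771970-34777547 on the plus strand. Hsp90b1 (ENSMUSG00000020048) is at chr10:86690209-86705509 on the minus strand and Calr (ENSMUSG00000003814) at chr8:84841850-84846934 on the minus strand. Manf (ENSMUSG00000032575) is at chr9:106838312-106891979 on the minus strand. Pdia6 (ENSMUSG00000020571) and Dnajb9 (ENSMUSG00000014905) share chromosome 12, at 17266545 to 17284770 and at 44205559 to 44210326. All 10 are annotated as protein-coding genes, and the 3′ tags count every Xbp1 transcript without telling whether IRE1 has spliced it.

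The mutant library held 69475632 UMIs (unique molecular identifiers, each a captured RNA molecule) and gave 6183 cells with a median of 9488 UMIs. The control library held 70221728 UMIs and gave 10347 cells with a median of 5671. The libraries shared 19 barcodes, 11 of them among kept cells. Cells fell into 28 clusters, of which 23 were named from marker genes and 5 were not. The name of the valve or endocardial endothelial-like class rests on 8 of 9 markers in cluster 7 and 9 of 9 in cluster 11. The leading genes over other clusters were Emcn and Plvap in cluster 7 and Hapln1 and Wnt4 in cluster 11. Of these, Plvap and Wnt4 are among the 9 markers. In valve interstitial-like clusters 1, 3 and 13, 13 of 14 markers were raised. Dicer1 stood at 38.7 CPM (the UMI count of a gene as a share of all UMIs of the class, scaled to 1e+06) in mutant and 89.98 CPM in control valve or endocardial endothelial-like cells, a log2 ratio of -1.21, against -0.47 in valve interstitial-like and -0.35 in coronary endothelial-like cells. The 3′ tags can lie outside the deleted part of Dicer1, so these values do not check the deletion. Nfatc1, which marks endocardial cells and drives the Cre, was at 164 CPM in mutant and 129 CPM in control cells of the same class.

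Across 12 classes with at least 25 cells in each library, the summed level of the members was highest in stromal fibroblast-like cells. It stood there at 4847 CPM in mutant and 4548 CPM in control, and the next class did not overlap. Epicardial-like cells followed with 3874 and 3797 CPM, then valve interstitial-like cells with 4106 CPM in mutant and 3485 CPM in control. Valve or endocardial endothelial-like cells differed most between the libraries, with 4437 CPM in mutant against 2957 CPM in control, so that their place in the order rested on the library. Coronary endothelial-like cells held 3044 CPM in mutant and 2745 CPM in control. Cardiomyocyte-like cells, with 1545 and 1549 CPM, and granulocyte-like cells, with 1148 and 878 CPM, were lowest. The mean of both libraries was 4.64-fold higher in the highest than in the lowest class. Of 11 pairs of neighbours in this order, 7 had ranges over the libraries that overlapped. These 7 ran from epicardial-like to coronary endothelial-like cells. The range holds the difference between mutant and control, so an overlap does not show that neighbours are alike within a library. Epicardial-like and valve interstitial-like cells changed places between the libraries. Macrophage-like cells, with 3202 CPM in mutant and 3002 CPM in control, lay above coronary endothelial-like cells in both, with separate counting intervals.

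**Figure D1:**
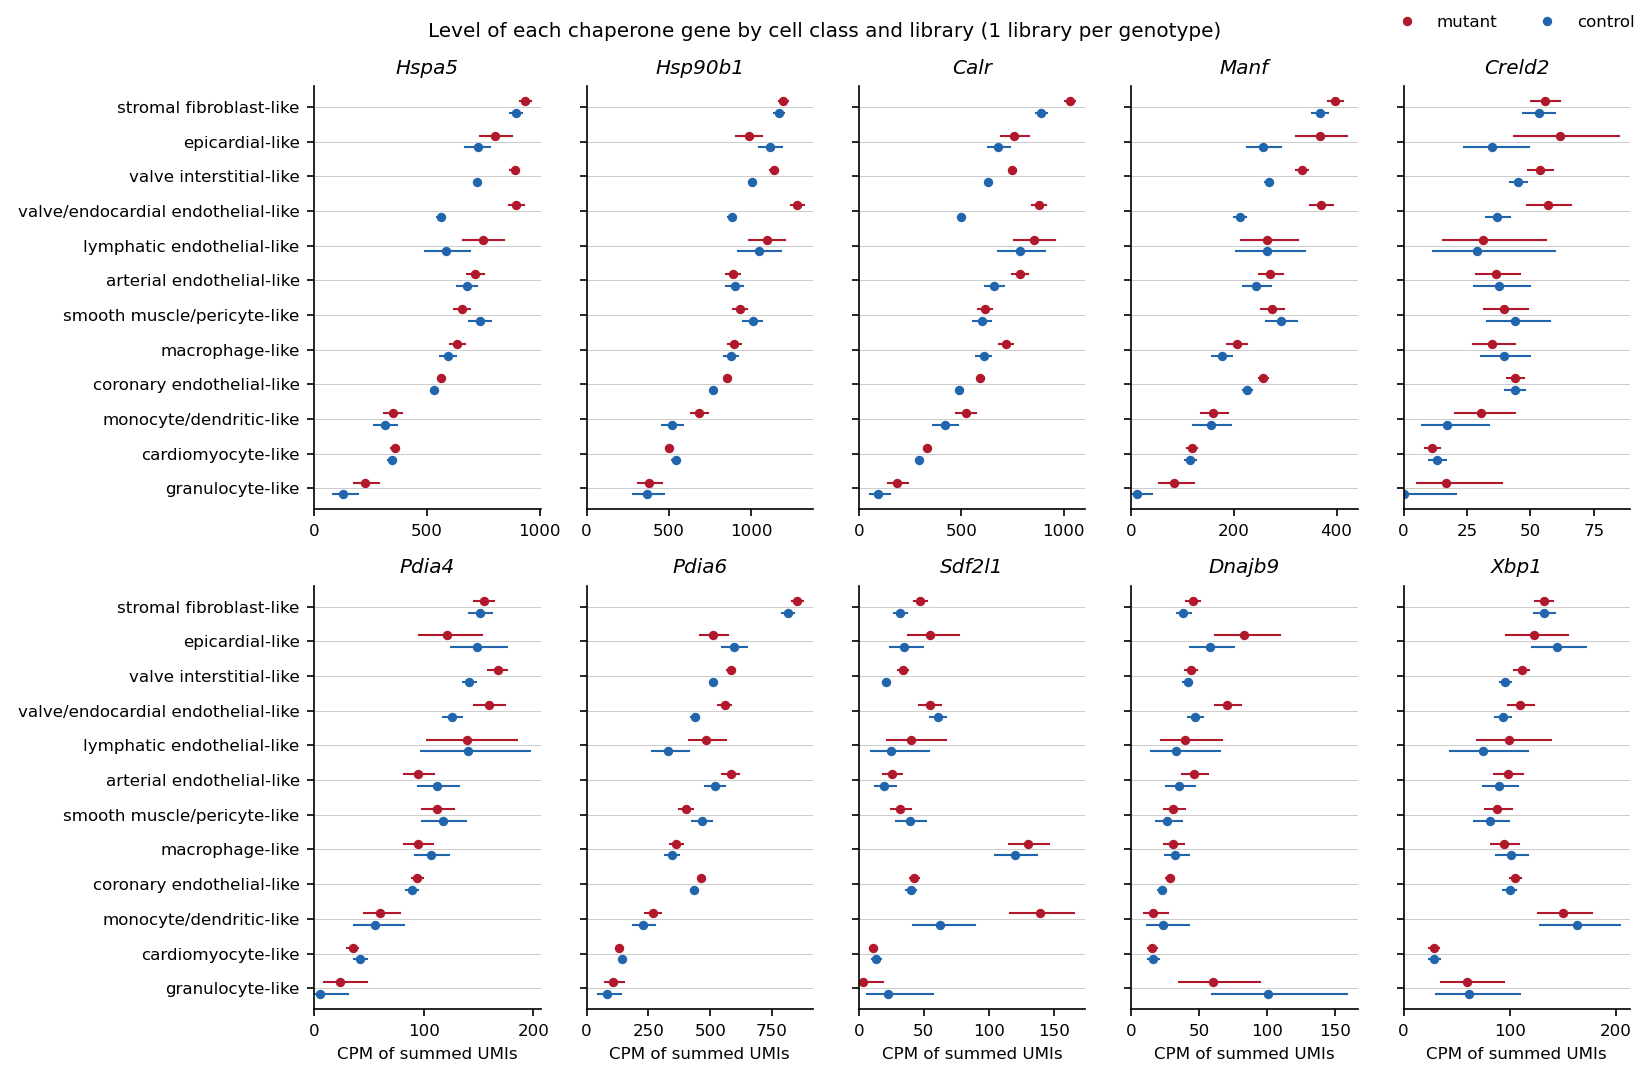
Level of each gene (x axis, CPM of UMIs summed over a class) in 12 cell classes (y axis, ordered by the summed level of the 10 genes), with mutant points in red above control points in blue; bars are 95% counting intervals. Most genes are highest in the stromal fibroblast-like class at the top and lowest in the classes at the bottom, while Sdf2l1, Dnajb9 and Xbp1 peak in other classes, and for Hspa5, Calr and Manf the mutant points lie well to the right of the control points in valve or endocardial endothelial-like cells.

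Most individual members shared the highest class, while the order below it differed by gene. Next came lymphatic endothelial-like cells for Calr and valve or endocardial endothelial-like cells for Hsp90b1. Hspa5, Hsp90b1, Calr, Manf, Creld2 and Pdia6 had their highest mean level in stromal fibroblast-like cells. Hspa5 reached 936 CPM in mutant and 895 CPM in control there, and its mean was 5.16-fold above that of granulocyte-like cells. For Pdia6 the values were 851 and 816 CPM, and no other class overlapped them. Pdia4 was highest in valve interstitial-like cells, at 168 CPM in mutant and 142 CPM in control, overlapping the stromal fibroblast-like class. The other 3 genes were highest in other classes. Sdf2l1 was highest in macrophage-like cells, with 130 CPM in mutant and 120 CPM in control, against 33.7 and 21.01 CPM in valve interstitial-like cells. Xbp1, which immune cells are known to use in secretion and differentiation, was highest in monocyte or dendritic cell-like cells, with 150 CPM in mutant and 163 CPM in control, and no neighbour overlapped. Dnajb9 was highest in granulocyte-like cells, at 59.9 CPM in mutant and 101 CPM in control, from 18 UMIs in each library, and overlapped the epicardial-like class.

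In valve or endocardial endothelial-like cells, 285 in mutant and 1199 in control, 9 of 10 members had a higher level in the mutant library, and the counting interval of each of those 9 lay above 0. Calr had 879 CPM in mutant and 500 CPM in control, a log2 ratio of 0.81 (0.74 to 0.89). For Manf, 370 CPM in mutant stood against 212 CPM in control, a log2 ratio of 0.80 (0.69 to 0.92). Hspa5 had 895 CPM in mutant and 561 CPM in control, a log2 ratio of 0.67 (0.60 to 0.75). The BiP chaperone, its secreted partner and the lectin were thus between 1.59 and 1.76 times as abundant in mutant as in control. Creld2 was at 56.9 CPM in mutant and 37.0 CPM in control, a log2 ratio of 0.62 (0.33 to 0.91). Dnajb9 was at 70.7 CPM in mutant and 47.0 CPM in control, a log2 ratio of 0.59 (0.33 to 0.85). With these, 5 of 10 members were at least 1.5-fold higher and 0 were 1.5-fold lower, whereas 6.64% of 3477 genes with a mean of at least 50 CPM were that much higher and 2.56% that much lower. Creld2, with a mean of 46.9 CPM, is below that floor, where 4 of 9 members were higher; with a floor of 10 CPM, which all 10 members pass, 7.78% of 8632 genes were higher and 4.75% lower. The intervals of Creld2 and Dnajb9 reach below 1.5-fold. The count was 2, namely Calr and Manf, with called doublets kept or with ratios centred on the median of all genes, and 3 among female-type cells, over UMIs without collagen, mitochondrial, ribosomal protein and haemoglobin genes, or without cluster 7.

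The other 5 members were below that size. Hsp90b1 had 1284 CPM in mutant and 883 CPM in control, a log2 ratio of 0.54 (0.48 to 0.60), against 0.58 for a 1.5-fold difference. The isomerases had smaller ratios, Pdia6 with 558 CPM in mutant and 437 CPM in control (log2 ratio 0.35, 0.26 to 0.44), and Pdia4 with 159 and 126 CPM (0.34, 0.18 to 0.51). Xbp1 had 110 CPM in mutant and 93.5 CPM in control, a log2 ratio of 0.24 (0.04 to 0.43). Sdf2l1 was the exception in direction, with 54.5 CPM in mutant and 60.7 CPM in control, a log2 ratio of -0.15 (-0.43 to 0.11). Over the 10 members the median log2 ratio was 0.56, beside 0.09 over all 3477 genes.

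**Figure D2:**
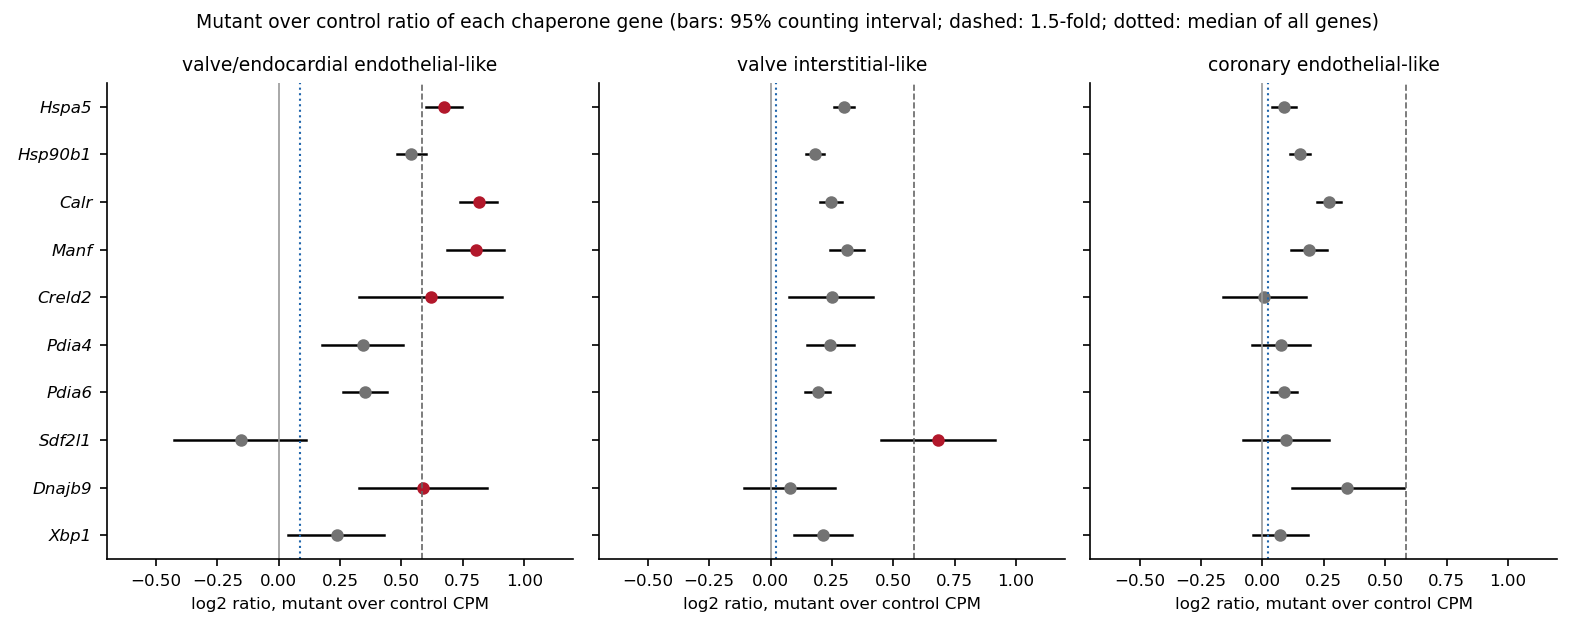
Log2 ratio of mutant over control CPM (x axis) of each gene (y axis) in 3 cell classes; bars are 95% counting intervals, red points are at least 1.5-fold higher, the dashed line marks 1.5-fold and the dotted line the median of all genes. In valve or endocardial endothelial-like cells 5 points are red and only Sdf2l1 lies below 0; in valve interstitial-like cells all 10 lie above 0 and Sdf2l1 is red; in coronary endothelial-like cells none is red.

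Both clusters of the class showed the pattern. In cluster 7, with 183 mutant and 721 control cells, 6 members were at least 1.5-fold higher in mutant (7.79% of genes of at least 50 CPM were, with 5 of 9 members at that floor, and 2.83% were lower), and Hsp90b1 joined the 5 above with 1308 CPM in mutant and 809 CPM in control. In cluster 11, with 102 mutant and 478 control cells, 3 members were (9.18% of genes of at least 50 CPM, with 4.27% lower): Hspa5 at 943 and 626 CPM, Calr at 921 and 566 CPM and Manf at 409 and 242 CPM in mutant and control. The median log2 ratio was 0.66 in cluster 7 and 0.45 in cluster 11. Sdf2l1 was at 58.9 CPM in mutant and 63.5 CPM in control in cluster 7, and at 48.5 and 56.9 CPM in cluster 11.

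The libraries differed in depth, in sex and in RNA of other cell types within this class. Valve or endocardial endothelial-like cells had a median of 10270 UMIs in mutant and 5196 in control. Cells of female type, with a UMI of Xist and none of 4 Y-linked genes, made up 53.3% of them in mutant and 97.0% in control. The members summed to 4335 CPM in female-type and 4427 CPM in male-type mutant cells, against 2955 CPM in female-type control cells, so both kinds of mutant cell lay above control. Among cells of 4000 to 8000 UMIs in both libraries, a range chosen after seeing the data, the median ratio was 0.73, and 7 members were at least 1.5-fold higher. The same range raised the median from 0.25 to 0.33 in valve interstitial-like cells and from 0.09 to 0.38 in coronary endothelial-like cells. Valve interstitial markers summed to 981 CPM in mutant and 1744 CPM in control endothelial-like cells, with 5 of 14 at least 1.5-fold lower, 3 higher and none at 0. Mitochondrial UMIs took a median of 4.83% and 4.69%. Haemoglobin genes summed to 27.6 CPM in mutant and 547 CPM in control, with 31.5 and 928 CPM in cluster 7 and 22.3 and 25.5 CPM in cluster 11. Depth and sex also differed in classes with smaller ratios. Stromal fibroblast-like cells had a median of 10553 UMIs in mutant and 6393 in control, with 36.2% and 94.0% of female type. Their median ratio was 0.07. Coronary endothelial-like cells had 8080 and 5147 UMIs, 39.0% and 94.4%, and a ratio of 0.09. Valve interstitial-like cells had 10368 and 5502.5 UMIs, 62.8% and 94.8%, and a ratio of 0.25. The part of these differences in the result was not tested beyond the values given.

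Per cell, the difference was spread over the class, with a longer upper tail in mutant. After each cell was thinned to 2000 UMIs, which left out 10 mutant and 49 control cells, a mutant valve or endocardial endothelial-like cell held a median of 7 UMIs of the 10 genes and a control cell 5. The quartiles were 4 and 11 UMIs in mutant and 3 and 8 in control. More than the control median was held by 65.8% of mutant cells (exact binomial interval 59.9 to 71.4) and 46.1% of control cells (43.2 to 49.0). The control 90th percentile was passed by 24.7% of mutant cells and 9.13% of control cells. In valve interstitial-like cells that percentile was passed by 15.1% in mutant and 8.17% in control, and in coronary endothelial-like cells by 14.9% and 9.88%. Intervals over cells of 1 pool describe these cells and not the spread between embryos.

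**Figure D3:**
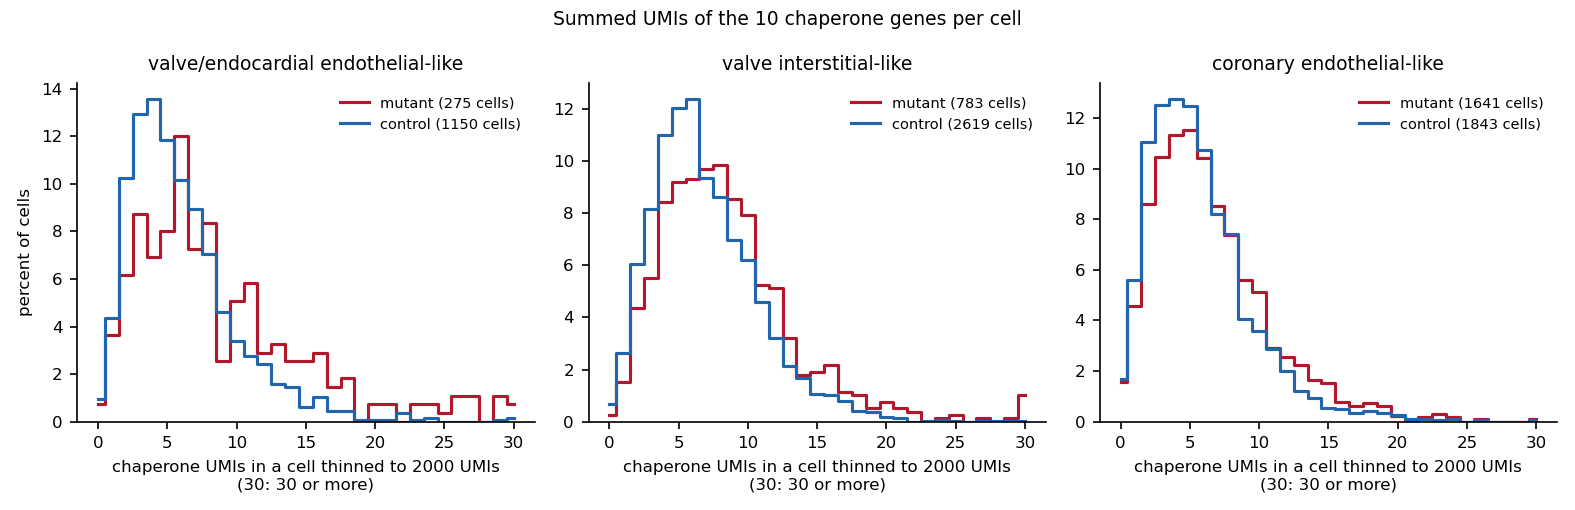
Share of cells (y axis, percent) by the summed UMIs of the 10 genes (x axis) after each cell was thinned to 2000 UMIs, mutant in red and control in blue, in 3 classes. In valve or endocardial endothelial-like cells the mutant curve lies to the right of the control curve and has a longer upper tail, with medians of 7 and 5 UMIs.

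Valve interstitial-like cells, 803 in mutant and 2658 in control, had a smaller difference in the same direction. All 10 members had a ratio above 0, with a median of 0.25 beside 0.02 for all genes, and 9 intervals lay above 0. Hspa5 had 888 CPM in mutant and 722 CPM in control (log2 ratio 0.30, 0.26 to 0.34), and Manf had 332 and 268 CPM (0.31, 0.24 to 0.38). Calr stood at 749 CPM in mutant and 631 CPM in control, Pdia4 at 168 and 142 CPM and Hsp90b1 at 1141 and 1007 CPM. Their log2 ratios were 0.25, 0.24 and 0.18. Only Sdf2l1 was at least 1.5-fold higher, with 33.7 CPM in mutant and 21.01 CPM in control, a log2 ratio of 0.68 (0.45 to 0.91), and 2.41% of 3316 genes were that much higher and 1.09% lower. These shares are over genes of at least 50 CPM, where 0 of 7 members were called; with a floor of 10 CPM, which Sdf2l1 passes, 3.85% of 8602 genes were higher and 1.64% lower. Among male-type mutant against female-type control cells its ratio was 0.40, and it also missed 1.5-fold among cells of 4000 to 8000 UMIs. It rested on clusters 1, with 46.5 and 24.1 CPM, and 13, with 37.4 and 21.6 CPM, while cluster 3 held 14.8 CPM in mutant and 13.4 CPM in control. Dnajb9 was at 43.8 CPM in mutant and 41.4 CPM in control, and its ratio was -0.26 when male-type mutant cells were set against female-type control cells.

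Within one library, the order of both valve classes differed by gene and by genotype. In mutant, 7 of 10 members were higher in valve or endocardial endothelial-like than in valve interstitial-like cells, 5 of them with an interval above 0, and in control 2 of 10 were, 1 of them with an interval above 0, while 7 had an interval below 0. Calr stood at 879 CPM in endothelial-like and 749 CPM in interstitial-like mutant cells, and at 500 and 631 CPM in control cells. Hsp90b1 and Manf had the same change of order with intervals clear of 0 in both libraries. Hspa5, at 895 and 888 CPM, did not differ between the classes beyond counting error in mutant, against 561 and 722 CPM in control. Sdf2l1 and Dnajb9 were higher in endothelial-like cells in both libraries, Dnajb9 within counting error in control. Pdia4, Pdia6 and Xbp1 were lower there in both libraries, each within counting error in mutant, and Xbp1 within it in control too. Over the 10 genes summed, the log2 ratio of endothelial-like over interstitial-like cells was 0.11 in mutant and -0.24 in control.

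Coronary endothelial-like cells, 1727 in mutant and 1977 in control, served as the endothelium beside the valve. Hspa5 had 562 CPM in mutant and 529 CPM in control, a log2 ratio of 0.09 (0.04 to 0.14), and Hsp90b1 had 857 and 771 CPM (0.15, 0.11 to 0.19). Calr had 589 CPM in mutant and 488 CPM in control (0.27, 0.22 to 0.32). Dnajb9 had the highest ratio, 0.35 (0.12 to 0.58), with 28.4 CPM in mutant and 22.4 CPM in control. The median was 0.09 beside 0.02 for all genes, and 0 members reached 1.5-fold, while 0.221% of 3162 genes were that much higher and as many lower. Whether the ratio differs between classes beyond the spread of embryos was not testable with 1 library per genotype.

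Other mural and muscle classes gave small ratios of either sign. Shares of all genes in brackets here and for the classes that follow are over genes of at least 50 CPM, and members below that floor are named. In cardiomyocyte-like cells the median was -0.08, with 0 members 1.5-fold apart (0.239% of all genes were higher and 0.717% lower). Smooth muscle or pericyte-like cells had a median of -0.10, again with 0 members past it (1.12% higher, 0.484% lower). Hspa5 was at 654 CPM in mutant and 734 CPM in control there, a log2 ratio of -0.17 (-0.29 to -0.04), and Pdia6 at 401 and 466 CPM. Arterial endothelial-like cells, a further endothelium beside the valve, had a median of 0.14 and 0 members past 1.5-fold (0.611% higher, 0.611% lower). Lymphatic endothelial-like cells, only 29 in mutant and 40 in control, had a median of 0.17 and 1 member past it, Sdf2l1 on 14 and 6 UMIs, which is below the floor (9.11% higher, 9.2% lower).

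The BiP partner Sdf2l1 had a log2 ratio of -0.15 (-0.43 to 0.11) in valve or endocardial endothelial-like cells, within counting error. In several other classes its ratio was positive. In stromal fibroblast-like cells, whose median was 0.07 with 0 members past 1.5-fold (0.194% higher, 0.0646% lower), Sdf2l1 had 47.1 CPM in mutant and 31.7 CPM in control, a log2 ratio of 0.57 (0.30 to 0.85). In monocyte or dendritic cell-like cells it had 140 CPM in mutant and 62.3 CPM in control, a log2 ratio of 1.14 (0.57 to 1.80) from 128 and 29 UMIs. It was 1 of 2 members past 1.5-fold there, beside Creld2 on 28 and 8 UMIs, which is below the floor (3.9% higher, 3.01% lower). Macrophage-like cells, in which Sdf2l1 is most abundant, had 130 CPM in mutant and 120 CPM in control, and 0 members past 1.5-fold (0.49% higher, 0.719% lower). Epicardial-like cells had 2 members past it, Creld2 with 61.6 CPM in mutant and 34.9 CPM in control and Sdf2l1 with 55.0 and 34.9 CPM. Both have means below the floor, where 0 of 8 members were called (2.81% higher, 2.43% lower); with a floor of 10 CPM, 11.5% of all genes were higher and 9.17% lower. Granulocyte-like cells, 41 in mutant and 46 in control, had 5 members higher and 2 lower, or 2 and 1 of the 6 past the floor (10.2% higher, 11.9% lower), among them Manf, Creld2, Pdia4 and Sdf2l1 with at most 4 UMIs in one of the libraries.

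Other branches of the response were read in the same classes. Ratios of these lists count genes with a mean of at least 10 CPM, and so do the shares and medians of all genes set beside them. At that floor 7.78% of all genes were higher and 4.75% lower in valve or endocardial endothelial-like cells, 3.85% and 1.64% in valve interstitial-like cells, and 0.481% and 0.407% in coronary endothelial-like cells. The medians of all genes were 0.06, 0.03 and 0.03 in that order of classes. Other chaperones and oxidoreductases had a median of 0.20 in valve or endocardial endothelial-like cells, with 3 of 21 at least 1.5-fold higher and 0 lower. Txndc5, a disulphide isomerase, had 274 CPM in mutant and 135 CPM in control, and Ero1l, which reoxidises these isomerases, had 67.6 and 40.4 CPM. Dnajc3, a BiP partner and inhibitor of PERK, had 170 CPM in mutant and 111 CPM in control. Degradation genes had a median of 0.30 with 0 of 9 past 1.5-fold, Derl2 being nearest with 82.4 and 55.6 CPM. Translocation genes, which carry new chains into the organelle, had a median of 0.13 with 0 of 17. The sensors and transcription factors had 0.19 with 1 of 11 higher, and Creb3l2, a relative of ATF6 known from secretory cells, had 209 CPM in mutant and 152 CPM in control. In coronary endothelial-like cells no list of this kind had more than 1 gene higher, and 0 genes were lower.

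The PERK and ATF4 targets had a median of 0.33 in valve or endocardial endothelial-like cells, with 3 of 10 higher and 0 lower, all 3 with a mean below 50 CPM. Ppp1r15a, which restores translation after PERK has acted, had 124 CPM in mutant and 87.5 CPM in control. In valve interstitial-like cells this list had 0.46, above the median of the 10 chaperones there, with 4 of 11 higher. Folding genes of collagen had 0.28 in endothelial-like cells, with 3 of 19 higher, among them the prolyl hydroxylase P4ha2 with 80.4 CPM in mutant and 28.5 CPM in control. Lysyl hydroxylase Plod3 had 120 and 68.3 CPM.

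Stress genes outside the endoplasmic reticulum also differed in the valve classes, and immediate early genes in some other classes too. Cytosolic heat shock genes had a median of 0.31 in valve or endocardial endothelial-like cells, 3 of 10 being higher, led by Hspb1 with 339 CPM in mutant and 108 CPM in control. The count of 3 rested on cluster 11, where 4 of 11 were higher and Hspb1 had 707 CPM in mutant and 190 CPM in control. In cluster 7 none of 10 was 1.5-fold higher, and Hspb1 had 70.0 and 47.5 CPM. The median of these heat shock genes did not rest on cluster 11 alone. It was 0.36 in cluster 11 and 0.27 in cluster 7, beside 0.04 and 0.08 for all genes. In valve interstitial-like cells the median of the heat shock genes was 0.07 with 0 of 10. Immediate early genes, which tissue dissociation is known to raise, had a median of 0.42 with 4 of 15 higher in endothelial-like cells, 0.51 with 7 of 15 in interstitial-like cells and 0.23 with 1 of 14 in coronary endothelial-like cells. As a list they summed to 2750 CPM in mutant and 2062 CPM in control valve or endocardial endothelial-like cells. Btg2 was at 140 and 65.9 CPM there, and at 216 and 79.0 CPM in valve interstitial-like cells. Their part in the chaperone ratios was not tested.

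**Figure D4:**
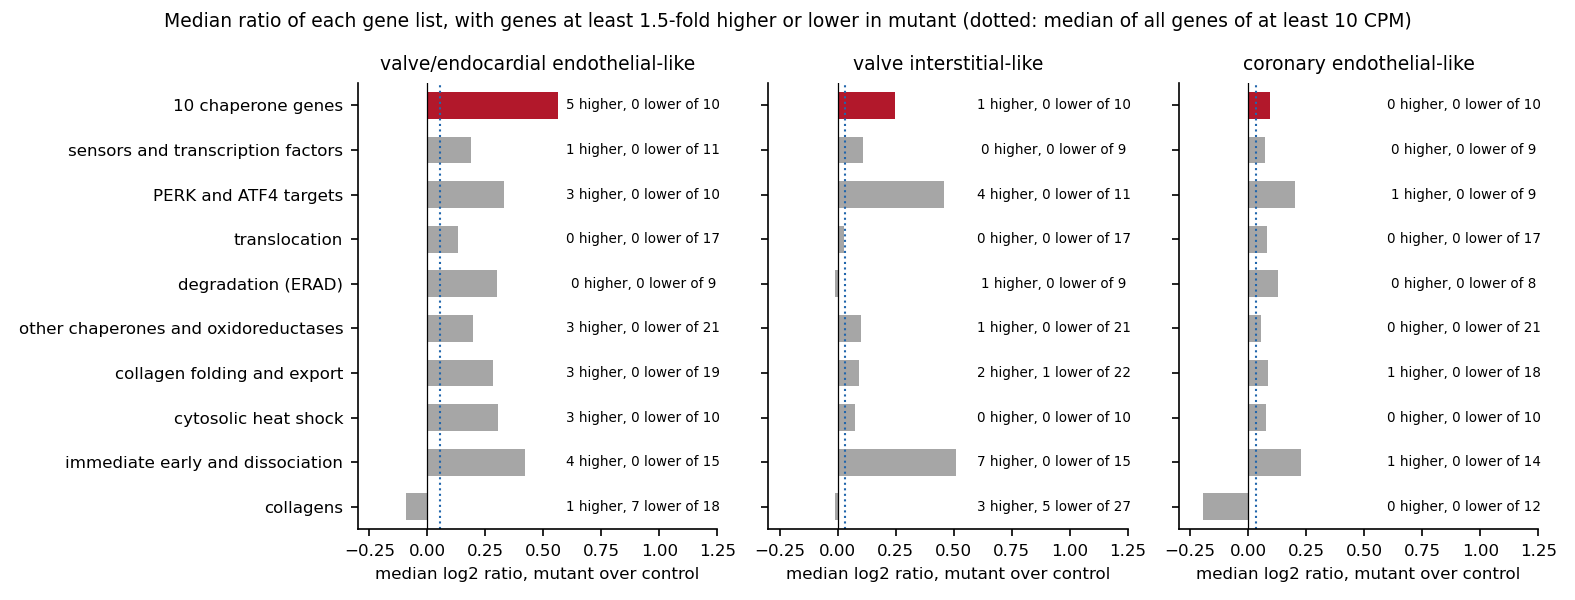
Median log2 ratio of mutant over control CPM (x axis) of the 10 chaperone genes (red) and of the other gene lists (grey) in 3 cell classes, with the number of genes at least 1.5-fold higher or lower; the dotted line is the median of all genes of at least 10 CPM. The chaperone median is 0.56, 0.25 and 0.09 from left to right, and in valve interstitial-like cells the immediate early list and the PERK and ATF4 targets have longer bars, 0.51 and 0.46.

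Collagen output was read as the summed CPM of all 44 collagen genes. Stromal fibroblast-like cells held 28221 CPM in mutant and 24327 CPM in control, and valve interstitial-like cells 13216 and 13054 CPM. Valve or endocardial endothelial-like cells held 4093 CPM in mutant and 4714 CPM in control, and coronary endothelial-like cells 4613 and 4524 CPM. Col3a1, Col1a2 and Col1a1 had the highest counts of all collagens. Col1a1 was at 52.5 CPM in mutant and 101 CPM in control macrophage-like cells, which are not known to make it, so fibrillar collagen levels of that size can come from free RNA.

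Across 24 clusters in 2 libraries (48 points), the summed chaperone level and the summed collagen level, both as log2 CPM, had a Pearson correlation of 0.72 and a Spearman correlation of 0.79. Within the mutant library Pearson's value was 0.70 and within control 0.74, over 24 points each. The points share cells of a class, the library and its depth, so this is a description. Serpinh1, the collagen-specific chaperone, gave 0.92 over the same points. Among the members, Pdia6 had the highest correlation with collagen, 0.78, followed by Hspa5 at 0.74. Creld2 had 0.60, Xbp1 0.57, Dnajb9 0.53 and Sdf2l1 only 0.21. Sdf2l1 was highest in macrophage-like cells, where all collagen genes summed to 480 CPM in mutant and 541 CPM in control. With only Col1a1, Col1a2 and Col3a1 as collagen the value for the sum was 0.49.

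**Figure D5:**
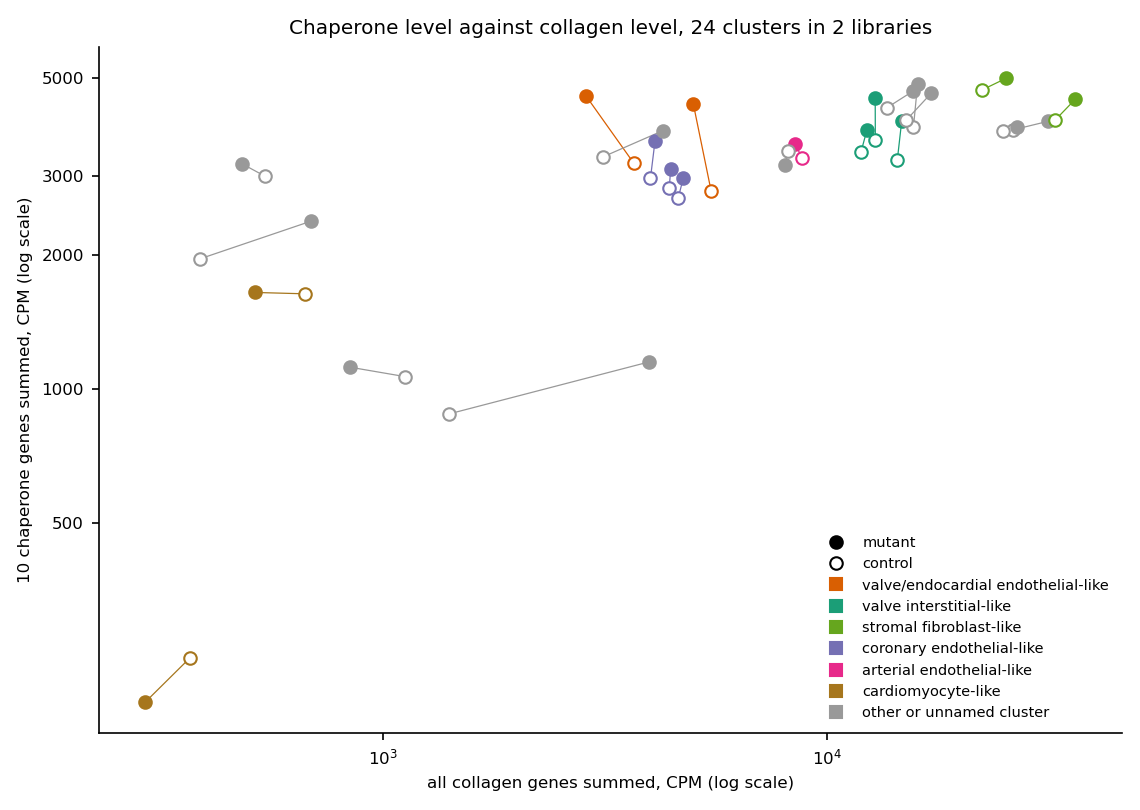
Summed CPM of the 10 chaperone genes (y axis, log scale) against summed CPM of all collagen genes (x axis, log scale) for 24 clusters, with mutant as filled and control as open points joined by a line. Stromal fibroblast-like clusters lie at the upper right and cardiomyocyte-like clusters at the lower left, and in both valve or endocardial endothelial-like clusters the mutant point lies above and to the left of the control point.

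Chaperone output per collagen UMI differed far more between classes than within the fibroblast classes. Stromal fibroblast-like cells held 172 member UMIs per 1000 collagen UMIs in mutant and 187 in control, and valve interstitial-like cells 311 and 267. Coronary endothelial-like cells held 660 and 607. Macrophage-like cells, with little collagen, held 6672 and 5550. Valve or endocardial endothelial-like cells held 1084 in mutant and 627 in control, with members higher and collagen lower in mutant. The collagen log2 ratio was -0.20 (-0.23 to -0.17) in this class, -0.13 in cluster 7 and -0.36 in cluster 11. Of its 18 collagen genes with at least 10 CPM, 7 were at least 1.5-fold lower and 1 higher, beside the 4.75% and 7.78% of all genes at that floor. Col4a1, a basement membrane collagen, had 791 CPM in mutant and 1511 CPM in control, and Col4a2 had 385 and 604 CPM. Serpinh1 had 715 CPM in mutant and 577 CPM in control. In valve interstitial-like cells collagen had a log2 ratio of 0.02 while the summed members had 0.24 (0.22 to 0.26).

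Cells of one class were also ranked by their collagen share and put in 5 equal groups (quintiles), with collagen left out of the CPM. In coronary endothelial-like cells the members summed to 4287 CPM in the top and 2674 CPM in the bottom quintile in mutant, and to 3754 and 2388 CPM in control. The top over bottom ratio was 1.60 in mutant and 1.57 in control, and Hspa5 had 1.76 and 1.67. The top quintile also held the shallower cells, with a median of 4566 against 10158.5 UMIs in mutant and 3261 against 6660.5 in control. Valve interstitial-like cells had a ratio of 1.254 in mutant and 1.16 in control, and Serpinh1 had 1.72 and 1.55. Stromal fibroblast-like cells had 1.10 and 1.13. There too the top quintile was shallower in mutant, with a median of 7237 against 11663 UMIs in interstitial-like and 7440 against 11322 in stromal fibroblast-like cells, and in control 5288 against 5756.5 and 5632 against 6439. In valve or endocardial endothelial-like cells the ratio was 0.97 in mutant and 1.28 in control, and in every quintile the mutant cells, at 3842 to 4682 CPM, lay above the control cells, at 2750 to 3549 CPM.

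Members differed between dividing and non-dividing cells of a class. Coronary endothelial-like cluster 2, with 1541 CPM of Top2a and Mki67 in mutant and 1416 CPM in control, was set against cluster 0, with 91.3 and 98.7 CPM. Dnajb9 was lower in the dividing cluster, with a log2 ratio of -0.51 in mutant and -0.58 in control, as was Xbp1, with -0.32 and -0.34, and Calr, with -0.25 and -0.26. Hsp90b1 was higher, 0.35 and 0.41, and so was Pdia4, 0.41 and 0.36. In valve interstitial-like cells, dividing cluster 13 over cluster 1 gave Dnajb9 -0.59 in mutant and -0.73 in control and Xbp1 -0.44 and -0.62. Over cluster 3 these values were -0.61 and -0.77 for Dnajb9 and -0.26 and -0.49 for Xbp1. Calr was lower over both clusters in both libraries, while Hsp90b1 over cluster 1 had -0.05 in mutant and 0.13 in control.

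The members varied together across clusters. Over 19 clusters with at least 50 cells in each library (38 points), the log2 level of Calr had a Pearson correlation of 0.98 with the mean of the other 9, Hspa5 0.97, Pdia4 0.97 and Sdf2l1 0.76. Without cluster 15, whose cells had few UMIs, and cluster 19, with few mitochondrial UMIs, Calr had 0.89, Hspa5 0.84, Xbp1 0.65 and Sdf2l1 0.09. Among 3316 other genes, those most like the group over all 38 points were Tm9sf3 (0.98), Rpn2 (0.98), Pdia3 (0.98), Nucb1 (0.97), Rpn1 (0.97), Spcs2 (0.97), Yipf3 (0.97) and Mia3 (0.96). These values include clusters 15 and 19, and none without them are given here. Rpn1 and Rpn2 are subunits of the enzyme that adds sugars to new chains, and Pdia3 is the isomerase that works with calreticulin.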

How the data were processed

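Per the labels' protocols, libraries were made with 10x 3′ v3 kits from sorted viable cells, 1 library per genotype. Per the submitters' processing notes, the authors used Cell Ranger 5.0.0 and mm10; its options and the annotation release are not given in the sources used here. The deposited files hold raw UMI counts (unit counts) per gene and barcode. Barcodes were kept with at least 500 genes, 1000 UMIs and under 20% mitochondrial UMIs, a limit that removed 16.8% of mutant and 11.4% of control barcodes. Scrublet in scanpy 1.11.5 removed 3.44% of mutant and 3.83% of control cells as doublets, fewer than the 5.12% and 8.61% expected from loading. Cells were clustered together on 2000 variable genes, without the members, the other endoplasmic reticulum lists or collagens, with 30 components, 15 neighbours and Leiden resolution 0.8 (leidenalg 0.10.2). A cluster was named when at least 3 markers of a class stood at least 1.5-fold above the median cluster and the class led the next by at least 0.5 log2, unless its leading genes or low UMI counts went against the name; this scoring was set after seeing the data. It left 21.5% of mutant and 19.4% of control cells unnamed.

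For each class and library, UMIs of a gene were added over its cells and divided by the class total (CPM). Ratios have 0.5 counts added and exact conditional intervals, and CPM values exact Poisson intervals, at 95%; they cover counting error only. A gene counts as higher or lower at 1.5-fold. Lists name up to 4 genes of at least 50 CPM with the largest ratio. The ratio step was tested on simulated data. The members and lists were chosen with earlier results of these data known. Depth was 69475632 UMIs in mutant and 70221728 UMIs in control.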

Additional observations from a re-analysis of the deposited data

How the results depend on the processing

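In valve or endocardial endothelial-like cells the median ratio of the 10 members stayed above 0 under all 16 alternatives, from 0.45 to 0.73, with 9 or 10 members above 0. It moved beyond counting error only among cells of 4000 to 8000 UMIs, to 0.73. The count of members at least 1.5-fold higher, 5, fell to 2 with called doublets kept, 2 when ratios were centred on the median of all genes, 3 over UMIs other than collagen, mitochondrial, ribosomal protein and haemoglobin ones, 3 among female-type cells and 3 without cluster 7, and the cause was not tested. Calr and Manf passed 1.5-fold in all 16, Hspa5 in 14, Creld2 in 10, Dnajb9 in 7 and Hsp90b1 in 3. Sdf2l1 reached 0.07 and Xbp1 -0.02 on cells thinned to 2000 UMIs. The class did not hold the same cells in every clustering, because some clusters that scored best for it went unnamed. With the left-out genes put back, these were clusters of 104 mutant and 316 control cells and of 40 and 236. With doublets kept, 39 and 231 cells went unnamed, and at resolution 1.5, 42 and 272. In valve interstitial-like cells the median kept between 0.21 and 0.33 over 17 alternatives and moved to 0.33 on thinned cells and to 0.33 among cells of 4000 to 8000 UMIs; the count of 1 became 0 in that depth range and with male-type mutant against female-type control cells. In coronary endothelial-like cells the median moved to 0.38 in that depth range, with 0 members past 1.5-fold in each of 14 alternatives. With each cell weighted alike, the log2 ratio of summed members between classes moved to 0.39 in mutant and 0.23 in control (valve interstitial-like over coronary endothelial-like), to 0.46 and 0.026 (valve or endocardial over coronary endothelial-like) and to 0.078 and -0.21 (valve or endocardial endothelial-like over valve interstitial-like), and the last to 0.082 in mutant at resolution 1.5. The correlation with collagen moved to 0.49 with 3 fibrillar collagens and 0.58 with classes set per cell. The depth window, the left-out clusters and the correlations without single clusters were chosen after seeing the data. No paired analysis was possible because there is 1 library per genotype and the labels give no pairing. Members under 50 CPM are limited by depth most, and fewer cells or less RNA per cell cannot be told apart in sums.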
